A study of Mus musculus with 8 samples.

Results

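The small leucine-rich proteoglycans are a family of matrix proteins built around a run of leucine-rich repeats, and 9 of them were followed here in fibroblasts grown from mouse hearts: Dcn, Bgn and Aspn, then Lum, Fmod, Prelp and Omd, and finally Ogn and Podn. They were taken by gene symbol, as 9 of the 24306 genes with a named spot on the array. The set was chosen with earlier results of these data known. The 9 genes were read by 13 spots. Bgn and Prelp had 3 spots each and the other 7 genes had 1, and a gene with several spots was read at its brightest. All 9 genes passed the brightness filter that kept 17014 genes, with Aspn and Omd closest to its edge.

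These proteins are secreted, and most carry chondroitin, dermatan or keratan sulfate chains. They bind collagen fibrils and set fibril width and spacing, and several also hold growth factors such as TGF-beta in the matrix or signal through Toll-like receptors. In the heart they are products of fibroblasts and are known for their part in scar formation and remodelling.

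The samples fell into 4 groups of 2 biological replicates: knockout-labelled cells in hypoxia, knockout-labelled cells in normoxia, wild-type cells in hypoxia and wild-type cells in normoxia. Hypoxia was 6 h at 1% O2, and the normoxic cells were left untreated. All cells were primary cultures in DMEM with 10% FBS. The knockout is labelled "Siah" only, which names a family of ubiquitin ligases known to act on the oxygen-sensing prolyl hydroxylases. The labels give neither the family member that was deleted, nor the kind of allele, the strain or the age of the mice, nor whether any samples come from the same animal or culture, so p-values measure only the spread between these samples. RNA was read on a 1-colour Agilent array, and the values are log2 intensities. The number of arrays limits the precision, and a level at 1 spot is not compared with a level at another.

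The arrays held 62976 spots, and the 8 columns shared nearly the same median (3.94). Of 11 fibroblast markers all 11 passed the brightness filter, with a mean level of 13.77 to 13.92 in knockout-labelled samples and 13.77 to 13.87 in wild-type samples. Macrophage and leukocyte markers were also bright. Their mean over 17 genes was 10.30 to 11.20 in knockout-labelled samples and 11.59 to 12.11 in wild-type samples, and Cd163 was the only 1 of the 17 below the filter. The Siah2 spot read 9.29 and 8.87 in knockout-labelled hypoxia and 6.60 and 7.39 in knockout-labelled normoxia, against 9.55 and 8.96 in wild-type hypoxia and 9.04 and 8.71 in wild-type normoxia. Averaged over oxygen, Siah2 differed by -1.03 on the log2 scale between knockout-labelled and wild-type samples (limma adjusted p = 0.225). Siah1a, Siah1b and Siah3 were higher in knockout-labelled samples, by 0.28, 0.41 and 0.41 (adjusted p = 0.565, 0.426 and 0.877). The position of these spots relative to the deletion is unknown, so they do not check the labels or show which gene was deleted. Among 4 sex-linked genes, Y-linked Eif2s3y differed by -5.33 on the log2 scale between knockout-labelled and wild-type samples (limma adjusted p = 0.000553) and Xist by 1.58 (adjusted p = 0.0951). Y-linked Kdm5d and Uty overlapped, at -0.09 (adjusted p = 0.938) and -0.41 (adjusted p = 0.654). The sex of the source animals is not given in the labels, and its part in the results was not tested. Of 10 genes known to respond to hypoxia, 10 were higher in hypoxia, with a median log2 difference of 1.89. None of these 10 passed an adjusted p under 0.05 in limma, while all 10 had an unadjusted p under 0.05. The smallest p was that of Bnip3, a mitochondrial protein, at 2.55 ± 0.28 (SE, adjusted p = 0.147).

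Several of the genes lie side by side. In the gene table of the mouse assembly GRCm38.p6, Dcn, Lum and Kera are neighbours on chromosome 10. Ecm2, Aspn, Omd and Ogn follow each other on chromosome 13, and Optc, Prelp and Fmod on chromosome 1. Podn lies on chromosome 4 and Bgn on the X chromosome. RefSeq promoter windows, 250 bases before to 50 bases after a gene's start, were matched for 7 of the 9 genes. The windows of Ogn, Podn and Aspn are printed because these 3 genes had their highest level in the same wild-type hypoxia sample. All 3 are given 5′ to 3′ on the gene's strand in GRCm38.p6, with capitals marking the letters ACGTG or GCGTG, the core of the hypoxia response element, on either strand.
Ogn (chr13:49607765-49608064, plus strand): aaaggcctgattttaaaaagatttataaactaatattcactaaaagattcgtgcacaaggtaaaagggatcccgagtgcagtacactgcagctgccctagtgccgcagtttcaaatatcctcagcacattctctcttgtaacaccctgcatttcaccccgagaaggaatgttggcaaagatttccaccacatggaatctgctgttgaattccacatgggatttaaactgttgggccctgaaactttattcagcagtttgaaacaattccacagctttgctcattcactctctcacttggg
Podn (chr4:108031905-108032204, minus strand): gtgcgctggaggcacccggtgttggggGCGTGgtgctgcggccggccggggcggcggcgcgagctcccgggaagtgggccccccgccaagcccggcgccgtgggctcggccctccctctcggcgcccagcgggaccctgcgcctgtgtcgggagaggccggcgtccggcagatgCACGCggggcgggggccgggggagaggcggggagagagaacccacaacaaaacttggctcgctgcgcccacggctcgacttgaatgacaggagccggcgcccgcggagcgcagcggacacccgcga
Aspn (chr13:49544193-49544492, plus strand): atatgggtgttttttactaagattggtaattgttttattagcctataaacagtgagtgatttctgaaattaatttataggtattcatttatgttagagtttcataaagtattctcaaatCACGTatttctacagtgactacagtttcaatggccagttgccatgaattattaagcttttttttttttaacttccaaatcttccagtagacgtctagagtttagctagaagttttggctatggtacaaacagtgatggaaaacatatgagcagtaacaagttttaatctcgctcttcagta

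The Podn window held GCGTG at -223 on the gene strand and at -76 on the opposite strand, counted from the start. The Aspn window held ACGTG at -131 on the opposite strand, and the Ogn window held neither core. The letters TATAA were present in the Aspn window at -207 on the gene strand and at -177 on the opposite strand. In the Ogn window they stood at -227 on the gene strand and at -228 on the opposite strand, where the matches overlap. Across 32851 windows of the same length, 43.8% held ACGTG or GCGTG on either strand (19.6% ACGTG, 32.4% GCGTG) and 24.9% held TATAA. Of the other windows, those of Prelp, Bgn and a further Podn start held GCGTG, and those of Fmod and Omd held neither core. A match describes the letters and not a binding site.

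The first question was whether the proteoglycans differ between knockout-labelled and wild-type fibroblasts. Dcn and Lum were lower and Fmod was higher in all 4 knockout-labelled samples than in any of the 4 wild-type samples, but no member passed an adjusted p under 0.05 when oxygen levels were averaged. The other 6 genes overlapped between genotypes. In limma 0 of 9 members were called, beside 0.047% of all genes. At an unadjusted p under 0.05 there were 3 of 9, namely Dcn, Lum and Fmod, beside 9.95% of all genes. The share of genes with every knockout-labelled sample below every wild-type sample was 4.85% (2 of 9 members), and with every one above it was 3.96% (1 of 9 members). The median difference of the 9 was -0.18, beside 0.03 over all genes, with 3 members higher and 6 lower.

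**Figure D1:**
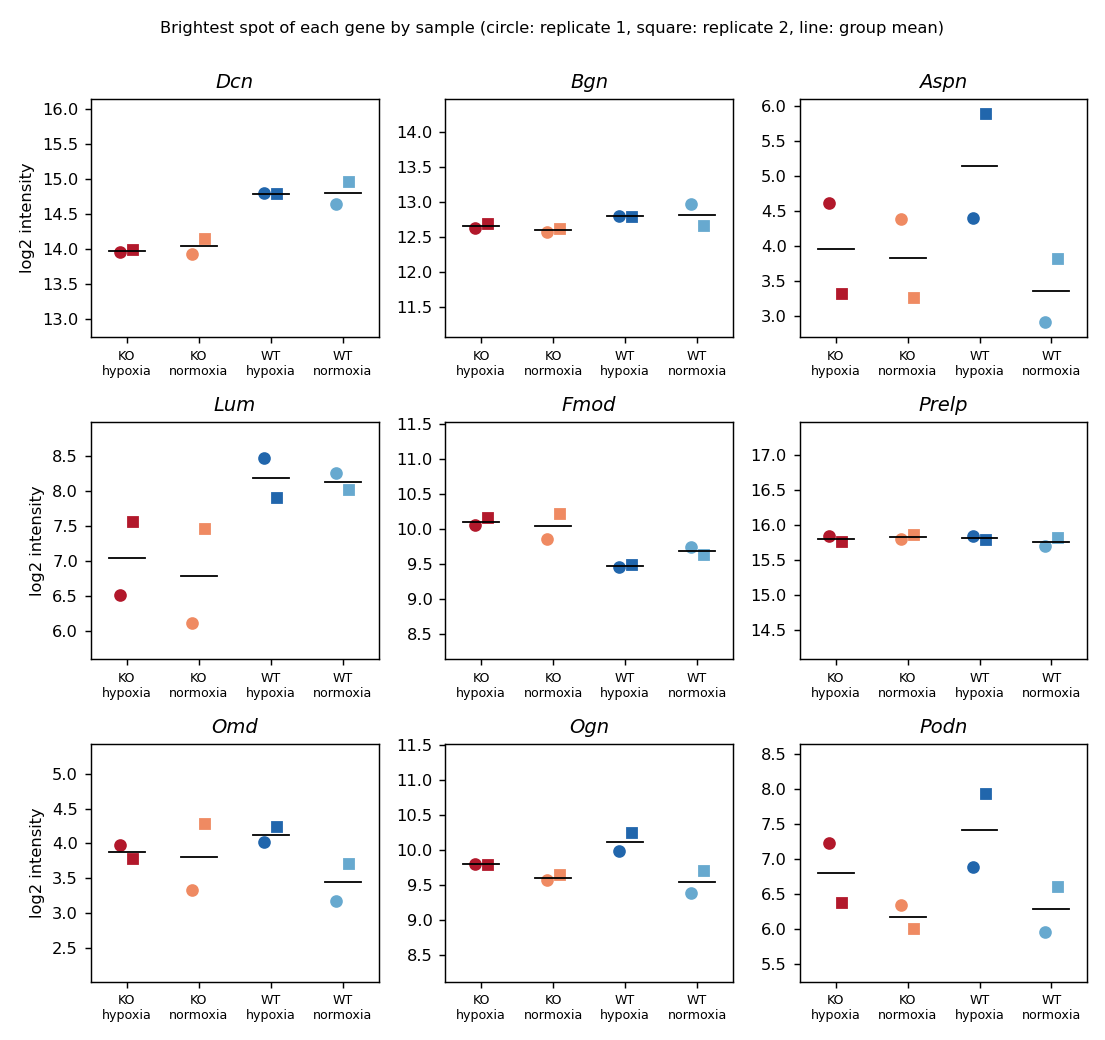
Log2 intensity of the brightest spot of each of the 9 genes (vertical axes, each spanning the same range) in the 4 groups, with circles for replicate 1, squares for replicate 2 and lines for the mean of 2 samples. Dcn lies between 13.93 and 14.15 in knockout-labelled samples and between 14.65 and 14.96 in wild-type samples, and Podn and Aspn peak in wild-type hypoxia at 7.94 and 5.90.

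Dcn encodes decorin, which wraps collagen fibrils and binds TGF-beta. It read 13.95 and 13.99 in knockout-labelled hypoxia and 13.93 and 14.15 in knockout-labelled normoxia, against 14.80 and 14.79 in wild-type hypoxia and 14.65 and 14.96 in wild-type normoxia. All knockout-labelled samples lay together below the wild-type ones, and within each genotype the oxygen levels overlapped. The averaged log2 difference was -0.79 ± 0.14 (SE, 95% interval -1.12 to -0.47, n = 4 samples each), a ratio of 0.577, with a limma adjusted p of 0.135. The difference was -0.82 ± 0.19 in hypoxia (adjusted p = 0.50) and -0.77 ± 0.19 in normoxia (adjusted p = 0.534). A limma fit that lets the variance follow the level gave Dcn an adjusted p of 0.0235. Other limma fits gave 0.0705 with the dimmest 50% of genes removed and 0.275 with a replicate block. With same-numbered samples of a genotype taken as 1 culture, the adjusted p was 0.356. Leaving out any sample gave log2 differences of -0.87 to -0.72.

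Lum encodes lumican, a keratan sulfate proteoglycan best known from the clear cornea and from collagen spacing in skin. It read 6.52 and 7.56 in knockout-labelled hypoxia and 6.11 and 7.46 in knockout-labelled normoxia, against 8.48 and 7.90 in wild-type hypoxia and 8.26 and 8.02 in wild-type normoxia. Replicate 1 of both knockout-labelled groups was lowest by about a log2 unit, so the spread within that genotype was wide. The averaged log2 difference was -1.25 ± 0.38 (95% interval -2.17 to -0.33, ratio 0.420, limma adjusted p = 0.332). Leaving out a sample moved it between -1.59 and -0.92. It was -1.15 ± 0.54 in hypoxia (adjusted p = 0.859) and -1.35 ± 0.54 in normoxia (adjusted p = 0.745).

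Fmod encodes fibromodulin, the close relative of lumican that shares its collagen binding site and is abundant in tendon. It read 10.06 and 10.16 in knockout-labelled hypoxia and 9.86 and 10.22 in knockout-labelled normoxia, against 9.46 and 9.49 in wild-type hypoxia and 9.75 and 9.63 in wild-type normoxia. Every knockout-labelled sample was above every wild-type sample, with the narrowest gap in normoxia. The averaged log2 difference was 0.49 ± 0.14 (95% interval 0.16 to 0.82, ratio 1.41, limma adjusted p = 0.284). It was 0.64 ± 0.19 in hypoxia (adjusted p = 0.661) and 0.35 ± 0.19 in normoxia (adjusted p = 0.887).

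Within each oxygen level, 0 of 9 members were called in limma, beside 0.00588% of all genes in both. At an unadjusted p under 0.05 there were 2 of 9 in hypoxia, Dcn and Fmod, beside 6.24% of all genes. In normoxia there were 2 of 9, Dcn and Lum, beside 6.48%. The medians of the 9 were -0.32 in hypoxia and 0.06 in normoxia, beside 0.02 and 0.03 over all genes. The comparisons in hypoxia and in normoxia are parts of the average and do not add to it.

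Bgn encodes biglycan, the nearest relative of decorin, whose soluble form is known to signal through Tlr2 and Tlr4. It read 12.64 and 12.68 in knockout-labelled hypoxia and 12.57 and 12.62 in knockout-labelled normoxia, against 12.81 and 12.80 in wild-type hypoxia and 12.98 and 12.66 in wild-type normoxia. The genotypes overlapped through wild-type normoxia replicate 2 alone. The averaged log2 difference was -0.18 ± 0.13 (limma adjusted p = 0.742), and the other 2 Bgn spots gave -0.22 and 0.26, so the spots disagreed in direction.

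Prelp encodes a proline- and arginine-rich protein that joins collagen to heparan sulfate in basement membranes. It read 15.84 and 15.75 in knockout-labelled hypoxia and 15.80 and 15.85 in knockout-labelled normoxia, against 15.83 and 15.78 in wild-type hypoxia and 15.70 and 15.81 in wild-type normoxia. These values sit close to the highest value of the whole table, and the groups overlapped. The averaged difference between genotypes was 0.03 ± 0.12 (adjusted p = 0.959), and the other 2 spots, which averaged 10.69 and 7.68, gave -0.07 and 0.09.

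The other genes overlapped between genotypes as well. Ogn, osteoglycin, gave -0.13 ± 0.14 (limma adjusted p = 0.848), and Podn, podocan, gave -0.36 ± 0.33 (adjusted p = 0.811). Aspn, asporin, which lacks a glycosaminoglycan chain and binds collagen and TGF-beta, gave -0.36 ± 0.50 (adjusted p = 0.888). Omd, osteomodulin, a keratan sulfate protein of bone, gave 0.06 ± 0.25 (adjusted p = 0.967).

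**Figure D2:**
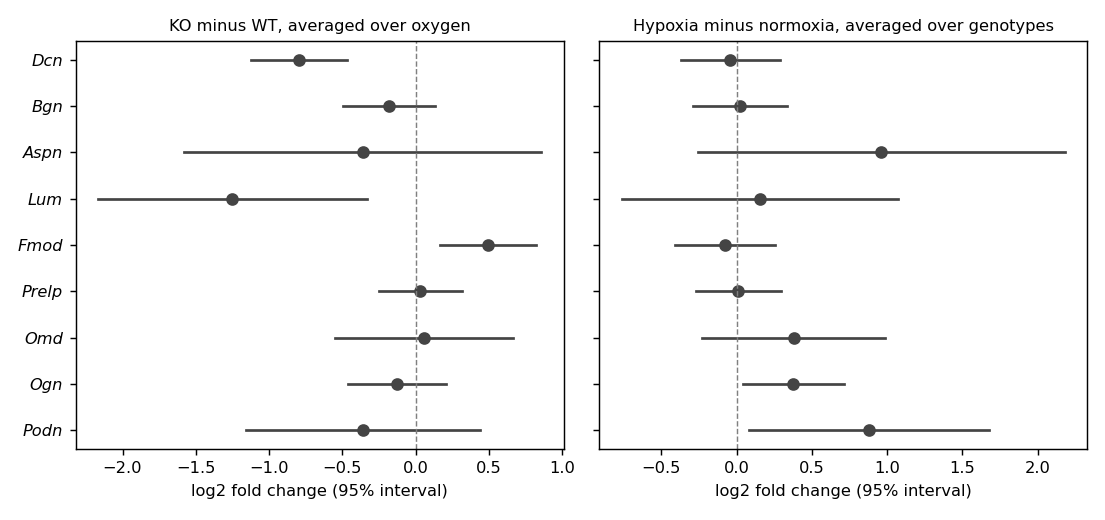
Log2 fold change and 95% interval of each of the 9 genes, for knockout-labelled minus wild type averaged over oxygen (left) and for hypoxia minus normoxia averaged over genotypes (right). On the left the intervals of Dcn, Lum and Fmod exclude 0, at -0.79, -1.25 and 0.49, and on the right those of Ogn and Podn do, at 0.38 and 0.88, before adjustment for the 17014 genes tested.

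Markers of other cells moved with genotype beside these results. All 16 macrophage and leukocyte markers above the filter were lower in knockout-labelled cells (median -1.21), 0 of 16 called and 14 with an unadjusted p under 0.05. Their mean level was 11.19 and 10.32 in knockout-labelled hypoxia and 11.20 and 10.30 in knockout-labelled normoxia, against 11.59 and 12.07 in wild-type hypoxia and 11.62 and 12.11 in wild-type normoxia. Knockout-labelled replicate 2 was thus lowest for the mean of these markers, whereas replicate 1 was lowest for Lum. Single markers differed from the mean. Csf1r read 11.88 and 12.01 in knockout-labelled replicate 1 (hypoxia, normoxia) against 12.68 and 12.66 in replicate 2, and Itgam was also lower in replicate 1. The mean of 10 smooth muscle and pericyte markers was 8.38 to 8.84 in knockout-labelled samples and 9.29 to 9.40 in wild-type samples. Of the 8 above the filter 2 were higher and 6 lower (median -0.42), 3 with an unadjusted limma p under 0.05. Kcnj8 and Abcc9 were below the filter, and Acta2 and Tagln read close to the highest value of the table in all samples. Mylk, a myosin light chain kinase, fell by 1.66 on the log2 scale (limma adjusted p = 0.0298). Of 9 epicardial and mesothelial markers 6 were higher and 3 lower (median 0.83), and 6 had an unadjusted p under 0.05, counted over both directions. Upk3b had the smallest p, at 1.28 (adjusted p = 0.0573). The 3 lower were Wt1, Krt8 and Krt18, and Krt18 read 5.76 to 6.55 in knockout-labelled samples and 7.03 to 7.47 in wild-type samples. Their mean was 7.81 to 8.16 in knockout-labelled samples and 7.26 to 8.0 in wild-type samples. The mean of 3 Schwann cell markers was 4.79 to 5.34 in knockout-labelled samples and 3.99 to 4.43 in wild-type samples. Of these, S100b gave 1.40 (limma adjusted p = 0.115), and Sox10 was below the filter.

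Other marker lists were split. Of 6 tendon and cartilage markers above the filter 4 were higher and 2 lower (median 0.23), Scx at 1.18 (limma adjusted p = 0.0785) and Comp at -0.64 (adjusted p = 0.405), with Tnmd and Thbs4 below the filter. Of 8 endothelial markers 3 were higher and 5 lower (median -0.09), with Emcn at 1.26 (adjusted p = 0.108). Of 7 cardiomyocyte markers 5 were higher and 2 lower (median 0.25), with Tnnt2 at 1.85 (adjusted p = 0.131), while Myh6, Tnni3 and Pln were below the filter. Ryr2, Myl2, Myl7, Nppa and Ttn averaged 3.71 to 4.59, at the dim end of the array, so their directions are uncertain as well. Of the 11 fibroblast markers 4 were higher and 7 lower (median -0.02), with Thy1 at 1.05 (adjusted p = 0.136). The part of these markers in the results was not tested, and in such bulk RNA fewer cells of a type and less RNA per cell cannot be told apart.

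**Figure D3:**
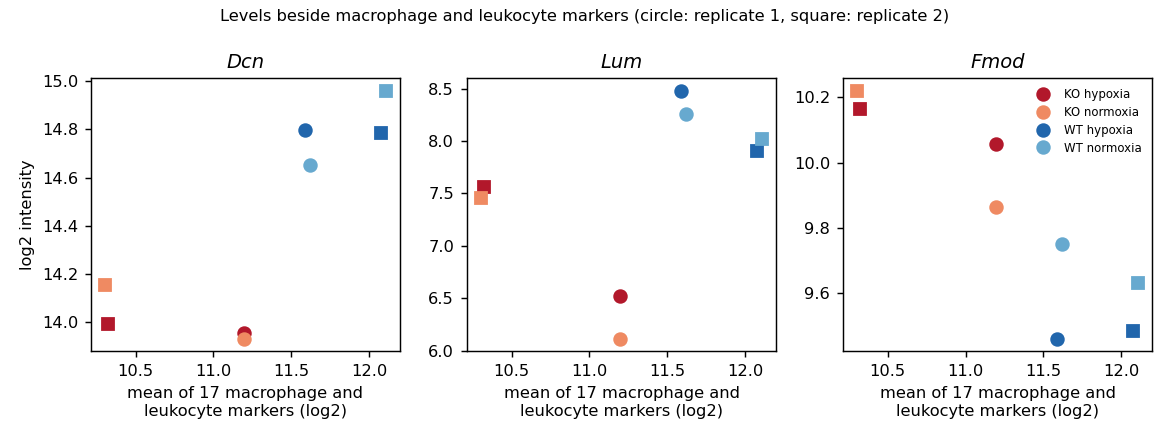
Log2 intensity of Dcn, Lum and Fmod (vertical axes) in each of the 8 samples against the mean of 17 macrophage and leukocyte markers (horizontal axes, log2), with colours for the groups and circles and squares for replicates 1 and 2. The 4 knockout-labelled samples lie between 10.30 and 11.20 on the horizontal axis and the 4 wild-type samples between 11.59 and 12.11. Within the knockout-labelled samples replicate 2 has a higher Lum and a lower marker mean than replicate 1, though the markers Csf1r and Itgam are higher in replicate 2. A link was not tested.

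The second question was whether the proteoglycans respond to 6 h of hypoxia. Ogn was higher in all 4 hypoxia samples than in any of the 4 normoxia samples, and Podn and Aspn were highest in wild-type hypoxia, but no member passed an adjusted p under 0.05. Dcn, Bgn, Prelp and Fmod had averaged differences between -0.08 and 0.02. Averaged over genotypes, limma called 0 of 9 members, beside 0% of all genes. At an unadjusted p under 0.05 there were 2 of 9, Ogn and Podn, beside 3.76% of all genes. The share of genes with every hypoxia sample above every normoxia sample was 1.35% (1 of 9 members, Ogn), and with every one below it was 0.817% (0 of 9 members). The median difference of the 9 was 0.15, beside -0.01 over all genes, with 7 members higher and 2 lower.

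Ogn encodes osteoglycin, also known as mimecan, a regulator of collagen fibril width that is known in heart tissue. It read 9.81 and 9.79 in knockout-labelled hypoxia against 9.57 and 9.65 in knockout-labelled normoxia. In wild-type cells it read 9.98 and 10.25 in hypoxia against 9.40 and 9.70 in normoxia. The lowest hypoxia value and the highest normoxia value were close, so the separation was narrow. The averaged log2 difference was 0.38 ± 0.14 (SE, 95% interval 0.04 to 0.71, ratio 1.30, unadjusted p = 0.0327, limma adjusted p = 1.00). By genotype it was 0.19 ± 0.20 in knockout-labelled cells and 0.57 ± 0.20 in wild-type cells, and the difference of these responses was -0.38 ± 0.28 (adjusted p = 1.00).

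Podn encodes podocan, a collagen-binding member first described in kidney podocytes and known to restrain smooth muscle growth. It read 7.23 and 6.37 in knockout-labelled hypoxia against 6.35 and 6.00 in knockout-labelled normoxia. In wild-type cells it read 6.89 and 7.94 in hypoxia against 5.95 and 6.61 in normoxia. Hypoxia was higher within each genotype, while the 2 oxygen levels overlapped over all 8 samples. The averaged log2 difference was 0.88 ± 0.33 (95% interval 0.08 to 1.68, ratio 1.84, unadjusted p = 0.0355, limma adjusted p = 1.00). It was 0.63 ± 0.47 in knockout-labelled cells and 1.13 ± 0.47 in wild-type cells. Without wild-type hypoxia replicate 2, the highest sample, the wild-type difference was 0.61.

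Aspn read 4.61 and 3.31 in knockout-labelled hypoxia against 4.40 and 3.26 in knockout-labelled normoxia. In wild-type cells it read 4.40 and 5.90 in hypoxia against 2.91 and 3.81 in normoxia. Replicates differed by more than a log2 unit in both knockout-labelled groups and in wild-type hypoxia, and 3 values (3.31, 3.26 and 2.91) were below the filter level of 3.39. The wild-type normoxia mean of 3.36 was also below it, so the wild-type difference is measured from a level at the dim end of the array and its size is uncertain. The averaged difference was 0.96 ± 0.50 (unadjusted p = 0.103, limma adjusted p = 1.00). It was 0.14 ± 0.71 in knockout-labelled cells and 1.79 ± 0.71 in wild-type cells, and the wild-type value was 1.04 without wild-type hypoxia replicate 2. The difference of these responses was -1.65 ± 1.01 (adjusted p = 1.00).

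Omd read 3.97 and 3.78 in knockout-labelled hypoxia against 3.33 and 4.27 in knockout-labelled normoxia, and 4.02 and 4.23 in wild-type hypoxia against 3.17 and 3.71 in wild-type normoxia. All were close to the filter level, and the averaged difference was 0.38 ± 0.25 (limma adjusted p = 1.00). Lum gave 0.15 ± 0.38, with an interval of -0.76 to 1.07 that leaves room for a change in either direction. Dcn gave -0.04 ± 0.14 (-0.37 to 0.29), Fmod -0.08 ± 0.14 (-0.41 to 0.25), Bgn 0.02 ± 0.13 (-0.29 to 0.33) and Prelp 0.01 ± 0.12 (-0.27 to 0.29).

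**Figure D4:**
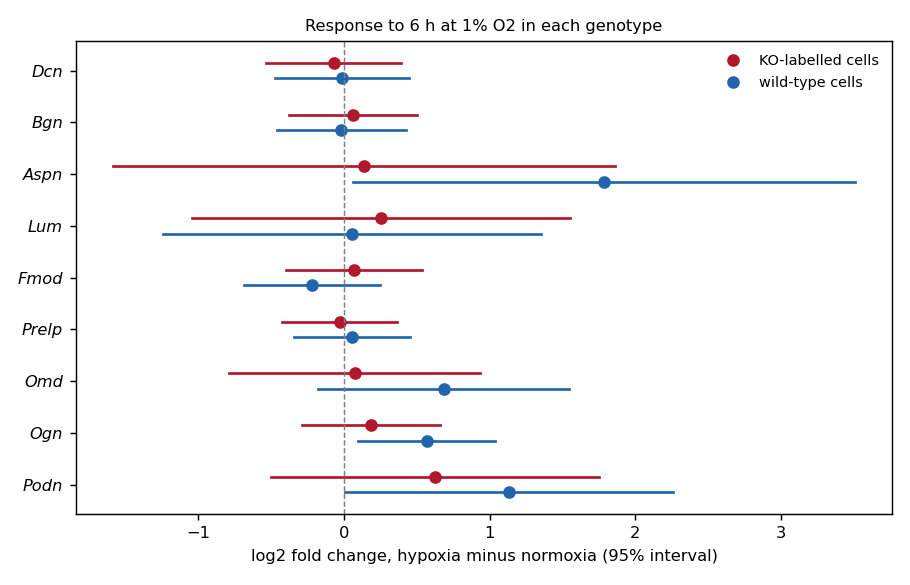
Log2 fold change of hypoxia minus normoxia with its 95% interval for each gene, in knockout-labelled cells (red, upper) and wild-type cells (blue, lower), from 2 samples a group. Aspn, Podn and Ogn have wild-type estimates of 1.79, 1.13 and 0.57 above the knockout-labelled estimates of 0.14, 0.63 and 0.19, with intervals that overlap.

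By genotype, limma called 0 of 9 members in knockout-labelled cells and 0 of 9 in wild-type cells, beside 0% of all genes in each. At an unadjusted p under 0.05 there were 0 of 9 in knockout-labelled cells and 3 of 9 in wild-type cells, namely Ogn, Podn and Aspn, beside 2.6% of all genes in knockout-labelled cells and 3.62% in wild-type cells. The difference of the responses was itself tested, and 0 of 9 members were called beside 0% of all genes, with 0 of 9 at an unadjusted p under 0.05 beside 2.45%. A response that differs between genotypes was therefore not shown for any member. For Dcn, Lum and Fmod the difference of the responses was -0.06 ± 0.27, 0.20 ± 0.76 and 0.29 ± 0.27, and for Podn it was -0.51 ± 0.66.

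Across the 8 samples, which share the groups and the normalization, the genes formed sets of like profile, given here as a description. Pearson's r was 0.93 for Aspn and Podn, 0.89 for Ogn and Podn and 0.82 for Ogn and Aspn. It was 0.83 for Dcn and Lum, the chromosome 10 neighbours, and -0.84 for Dcn and Fmod. Omd, which lies between Aspn and Ogn on chromosome 13, reached 0.44 with Aspn and 0.74 with Ogn. For Aspn and Lum, the members with the widest spread, the most similar other genes were also sought. They were Eif1b (r = 0.96), Orc3 (0.94) and Tbc1d32 (0.94) for Aspn. Both Aspn and Tbc1d32 had values below the filter level, Tbc1d32 at 3.24 in wild-type normoxia replicate 1. For Lum they were Pik3ca (0.99), Ltbp2 (0.98) and Gm35239 (0.97), of which Gm35239 was near the filter level. These genes were picked for the highest r among all other genes above the filter. High values over 8 samples can come from that search alone.

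The genes that build, bind and cut these proteins were read from 6 lists, none of which held a gene called in either averaged comparison. In hypoxia 0 genes of each list had an unadjusted p under 0.05, and the genes under it between genotypes are named after their values were seen, to be read beside the 9.95% of all genes under that p. Among other leucine-rich repeat proteoglycans, 5 of 10 were above the filter, and Kera, Epyc, Chad, Nyx and Nepn were below it. For knockout-labelled minus wild type, 1 was higher and 4 were lower (median -0.10). Podnl1, the podocan-like protein, had the smallest p, at -0.75 ± 0.31 (limma adjusted p = 0.497), and was the only 1 with an unadjusted p under 0.05. In hypoxia 3 were higher and 2 lower (median 0.21).

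Genes of glycosaminoglycan chain assembly, 32 of 36 above the filter, were higher in knockout-labelled cells for 21 and lower for 11 (median 0.08). Xylt1, which starts the chain by adding xylose to the core protein, gave 0.45 ± 0.15 (limma adjusted p = 0.363). It was 1 of 3 with an unadjusted p under 0.05, beside Uxs1 at 0.32, which makes the xylose donor, and Csgalnact1 at -1.0, which starts chondroitin chains. In hypoxia 14 were higher and 18 lower (median -0.02), and Chst15, a chondroitin sulfotransferase, gave 0.81 ± 0.39 (adjusted p = 1.00). Of 13 collagens and their partners, the main binding targets of the family, 3 were higher and 10 lower in knockout-labelled cells (median -0.12). Col6a3, a chain of the microfibrillar collagen, gave -1.06 ± 0.28 (adjusted p = 0.258). It was 1 of 3 with an unadjusted p under 0.05, beside Col5a3 at -0.90 and Col6a2 at -0.37. Col5a3 in hypoxia gave 0.45 ± 0.27, with 10 higher and 3 lower (median 0.08).

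Ligands and receptors bound by the members, 18 of 19 above the filter, split into 9 higher and 9 lower in knockout-labelled cells (median -0.08). Tlr4, a receptor for biglycan that macrophages also express, gave -1.11 ± 0.22 (limma adjusted p = 0.161), beside the lower macrophage markers whose part was not tested. It was among 6 with an unadjusted p under 0.05. The others were Tlr2 at -1.07, Cd14 at -1.29, P2rx7 at -0.55, Lrp1 at -0.50 and, in the other direction, Met at 0.92. In hypoxia 6 were higher and 12 lower (median -0.08), with Ccn4, a matricellular protein that binds decorin and biglycan, at -0.34 ± 0.19. Of 16 proteases, 5 were higher and 11 lower in knockout-labelled cells (median -0.14), and Adamts4, an aggrecanase that also cuts family members, gave -1.11 ± 0.19 (adjusted p = 0.136). It was 1 of 3 with an unadjusted p under 0.05, beside Mmp8 at -0.92 and Mmp12, a macrophage elastase, at -0.54. In hypoxia 7 were higher and 9 lower (median -0.03), with Mmp8, a collagenase of neutrophils, at -0.31 ± 0.17. Of 20 other proteoglycans above the filter, 7 were higher and 13 lower in knockout-labelled cells (median -0.13). Srgn, the proteoglycan of leukocyte granules, gave -1.20 ± 0.31 (adjusted p = 0.246). The others of 3 with an unadjusted p under 0.05 were Esm1, a dermatan sulfate proteoglycan of endothelium, at 1.65 and Sdc1 at -0.33. In hypoxia Ncan, a brain proteoglycan, gave 0.65 ± 0.31 from normoxia values of which 3 were below the filter level, with 13 higher and 7 lower (median 0.04).

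**Figure D5:**
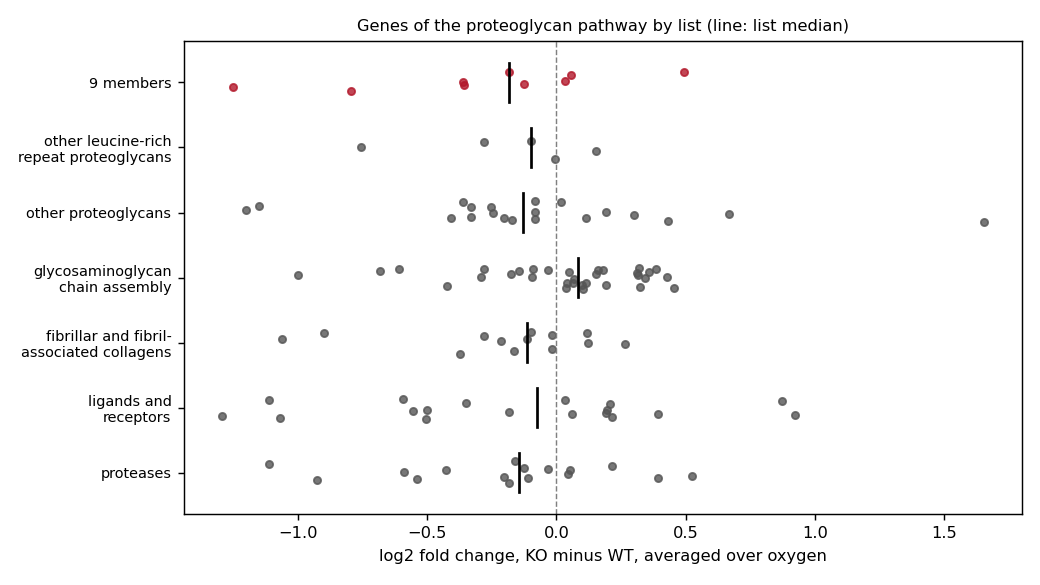
Log2 fold change of knockout-labelled minus wild type, averaged over oxygen (horizontal axis), for the 9 members and for the tested genes of 6 lists, 1 point a gene with a line at the list median. The members' median is -0.18 and the list medians run between -0.14 and 0.08, and no plotted gene was called.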

How the data were processed

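Total RNA of 8 samples was read on a 1-colour array, per the labels. The authors deposited 1 value a spot, taken as log2 intensity from its range (2.13 to 16.0). The log base, background correction and normalization are not given in the sources used here. Limma was used, per the submitters' processing notes, with no version given. Of all deposited values 10 were missing, none at a member. Spots were named through the platform annotation, updated through a RefSeq gene table (GRCm38.p6): 43941 spots had 1 gene, 0 had several and 19035 had none. Promoter sequences came from RefSeq.

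The brightest spot stood for each gene, and the dimmest 30% of genes were removed (mean up to 3.39). Group means were fitted in limma 3.58.1 (R 4.3.3; lmFit, eBayes, no trend) over all 8 samples, with 4 residual and 2.25 prior degrees of freedom. Contrasts were tested with Benjamini-Hochberg adjustment over 17014 genes, called at an adjusted p under 0.05. In simulated data for the averaged hypoxia comparison over 17014 genes, 40% of genes changed by log2 1, 68% by 2, 98% by 4 and 100% by 8 were called. The simulated noise was normal and independent between samples, with the genes' variances shuffled among them. These percentages check the fit and are not its power in the real data, where the same comparison called 0 of 17014 genes.

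The members and lists were chosen with earlier results of these data known. Named genes were the 9 members, the gene of each list with the smallest unadjusted p in each averaged comparison, and the 3 genes most correlated with each of the 2 members of widest spread. Other list genes with an unadjusted p under 0.05 between genotypes were named after their values were seen. Marker genes and sex-linked genes are given as checks, and the Siah genes as a description only. Alternatives covered normalization, filter, spot choice, variance trend, samples fitted, blocks and leaving out each sample.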

Additional observations from a re-analysis of the deposited data

How the results depend on the processing

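The number of members called stayed at 0 in every comparison and alternative, except for knockout-labelled against wild type averaged over oxygen. There it was 1, Dcn, with a variance trend (adjusted p = 0.0235) and 1, Dcn, with the replicate block crossed between genotypes (adjusted p = 0.0477, 453 genes called in all), which was chosen after seeing the data. Over the alternatives Dcn's adjusted p ran up to 0.356. Same-numbered samples deviated together within genotypes (r = 0.34 and 0.31) and against each other between them (-0.38 to -0.26). The numbers therefore do not pair samples across genotypes. Within a genotype, same-numbered samples may share a culture, which the labels do not say, while the main fit treats all 8 samples as separate. Taking them as 1 culture gave a fitted correlation of 0.431. With the replicate block as numbered, 0 members were called, Dcn had an adjusted p of 0.275, and 1 gene was called in all. With culture as a random block Dcn had an adjusted p of 0.356, and with the dimmest 50% removed, 0.0705. Over all genes, knockout-labelled against wild type called 8, against 45 with the dimmest 50% removed, 62 with the variance trend, 1 with culture as a random block and 1 to 12 without a sample. Hypoxia against normoxia called 0, against 15 with the variance trend, 15 with culture as a random block (no member, smallest adjusted p 0.414, Podn) and up to 4 without a sample. Within normoxia the genotypes gave 1, against 3 with the dimmest 50% removed and 0 to 2 without a sample, and within hypoxia 1, against 0 to 9 without a sample, both being 0 with only the groups compared. The 12, 4 and 9 came without knockout-labelled hypoxia replicate 2.

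Of 38 member values, 26 kept their direction throughout and 12 turned when a sample was left out. Hypoxia minus normoxia then ran between -0.12 and 0.036 for Dcn, -0.056 and 0.10 for Bgn, -0.18 and 0.49 for Lum, -0.16 and 0.013 for Fmod, and -0.014 and 0.039 for Prelp. Bgn also turned, to -0.0042, as a mean over its spots. Within knockout-labelled cells it ran between -0.51 and 0.79 for Aspn and -0.40 and 0.55 for Omd. Knockout-labelled minus wild type ran between -0.73 and 0.011 for Aspn, turning without wild-type hypoxia replicate 2, and between -0.18 and 0.29 for Omd. The difference of the responses ran between -0.21 and 0.099 for Dcn, -0.47 and 0.87 for Lum, and -1.03 and 0.017 for Podn. The cause was not tested.

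The members' median moved by more than its replicate SD of 0.0886 when a sample was left out. It ran between -0.20 and -0.061 for knockout-labelled minus wild type averaged over oxygen, -0.45 and -0.15 in hypoxia and -0.11 and 0.22 in normoxia. For hypoxia minus normoxia it ran between 0.010 and 0.40 averaged, -0.055 and 0.22 in knockout-labelled cells and 0.028 and 0.34 in wild-type cells, and for the difference of the responses between -0.33 and -0.057. The count of members with no overlap between oxygen levels ran between 1 and 3, being 3 without knockout-labelled hypoxia replicate 2 and 2 without replicate 2 of either normoxia group. Leaving out a sample can only keep or raise such a count. The share of all genes under the same omissions is not given, so the rise is not a result about the members. Dim signal limits Aspn and Omd, and the top of the scale limits Prelp.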
